A study of Mus musculus with 74 samples.

Results

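The synaptic vesicle release machinery was followed in mouse dorsal root ganglion (DRG) through the gene families of synaptotagmins (Syt), syntaxins (Stx), syntaxin binding proteins (Stxbp), VAMPs, SNAP25 and its relatives, complexins (Cplx), synapsins (Syn), SV2 proteins and RIMs. Members were the protein-coding genes whose symbols fall in these numbered families and whose mean count over the 8 whole DRG libraries reached 10 reads. The symbols matched 65 genes, of which 63 were protein-coding and 2 were pseudogenes, and 58 reached the minimum, out of 53379 genes in the files and 14793 protein-coding genes above the same minimum. The 5 protein-coding genes left out were Stx19 (mean 9.75 reads), Cplx3 (4.5), Vamp9 (2.5), Cplx4 (0.75) and Syt8 (0.75). The lowest members were Syt10, with a mean of 59.6 reads, and Syt17, with 64.6 reads.

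A vesicle fuses when a SNARE protein in its membrane, a VAMP, zips together with a syntaxin and a SNAP25 family protein in the target membrane. At nerve terminals syntaxin binding proteins guide this assembly, complexins hold it ready, synaptotagmins that bind calcium trigger fusion, synapsins tether the reserve of vesicles, and RIMs organise the release site. Sensory neurons make these proteins in the cell body in the ganglion and ship them along the axon to terminals in the skin, muscle and spinal cord, while relatives such as Stx7 or Vamp8 serve endosomes and lysosomes in most cell types.

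Adult female mice were compared 1 and 3 days (1d, 3d) after 1 of 2 injuries. SCI was a dorsal hemisection of the thoracic spinal cord, which cuts the central branch of ascending sensory axons, and SNI was a crush of the sciatic nerve, which cuts the peripheral branch. Whole L4 DRG came from wild type C57BL/6 mice of 10 to 12 weeks, 4 uninjured and 4 at 1d after SCI, and whole DRG after SNI was not analysed here. Sorted cells came from L4 DRG of Thy1YFP16 mice of 10 to 20 weeks, in which the Thy1 promoter drives YFP in a subset of mostly large sensory neurons, so that all sorted groups carry the transgene and no value speaks for YFP-negative neurons. From each mouse 3 wells of about 100 YFP+ cells were sequenced and summed here. The mice numbered 6 in the naive group and 4 in every injured group (SNI at 1d and 3d, SCI at 1d and 3d). Sample titles label the naive mice as controls of 1d or of 3d. Both were pooled here, so each injured group was compared with controls of both labels.

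Whole DRG libraries held 21959030 to 44493319 reads on genes and the summed mice 30518187 to 83599972. The sort label was checked against 8 neuron and 9 satellite glia and Schwann cell markers. In 22 of 66 wells, from 14 of 22 mice, the glial genes held a larger share of reads than the neuron genes, and these wells are called glia-rich. Glial genes took 1.02 to 15.3% of reads there and 0.178 to 1.39% in the other 44 wells. Glia-rich wells made up 8 of 18 wells in naive mice, 3 of 12 in SNI 1d and in SCI 1d, and 4 of 12 in SNI 3d and in SCI 3d. Naive mice 5 and 6, SNI 3d mouse 3 and SCI 3d mouse 3 had no other well, so 18 mice remain without them. Counts of calls are therefore given with all wells and without glia-rich wells. Values of single mice and counts of groups that do not overlap are mostly given without glia-rich wells, with the fitted value of all wells beside those described most closely. Wells also came in 2 sets by title, FACS and FACS2018, and without glia-rich wells all 4 naive mice belong to the set FACS.

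The most abundant members per length were Cplx1, Snap25, Syt11 and Syt4 (plot of levels by gene). Levels are given as TMM-scaled CPM (reads of a gene relative to the library's size) per kilobase of exonic length, as mean ± SD. In uninjured whole DRG, Cplx1, a neuronal complexin, stood at 315 ± 34.3 CPM per kb (n = 4) and Snap25, the neuronal target SNARE, at 286 ± 4.57 (n = 4). Syt11 and Syt4, synaptotagmins that do not bind calcium in the usual way, followed at 241 ± 22.5 and 103 ± 4.15 (n = 4). Cplx1 and Snap25 overlapped in their ranges over the 4 mice, and so their order is not resolved. At the other end, Syn3 stood at 0.331 CPM per kb, Syt17 at 0.409 and Syt13 at 0.641.

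The same 4 genes led in sorted naive neurons without glia-rich wells, in a different order. Snap25 reached 1548 ± 444 CPM per kb (n = 4), Cplx1 523 ± 131, Syt11 328 ± 32.8 and Syt4 182 ± 39.2. Stx12, an endosomal syntaxin, stood at 100.5 ± 15.96. Among calcium sensors, Syt2, the sensor of fast-firing terminals, was the most abundant in both materials, at 81.6 CPM per kb in whole DRG and 22.1 in sorted neurons, against 21.1 and 4.86 for Syt1. Syt7, Syt9 and Syt5 stood at 26.6, 24.0 and 23.2 CPM per kb in whole DRG but at 1.39, 1.88 and 1.27 in sorted naive neurons. Single sorted naive mice ran from 0.594 to 2.25 for Syt7, 0.00564 to 7.36 for Syt9 and 0 to 3.95 for Syt5. Naive mouse 2 held the highest value of Syt9 and of Syt5. The library kits differed between the 2 materials, so these levels are set side by side with no test.

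**Figure D1:**
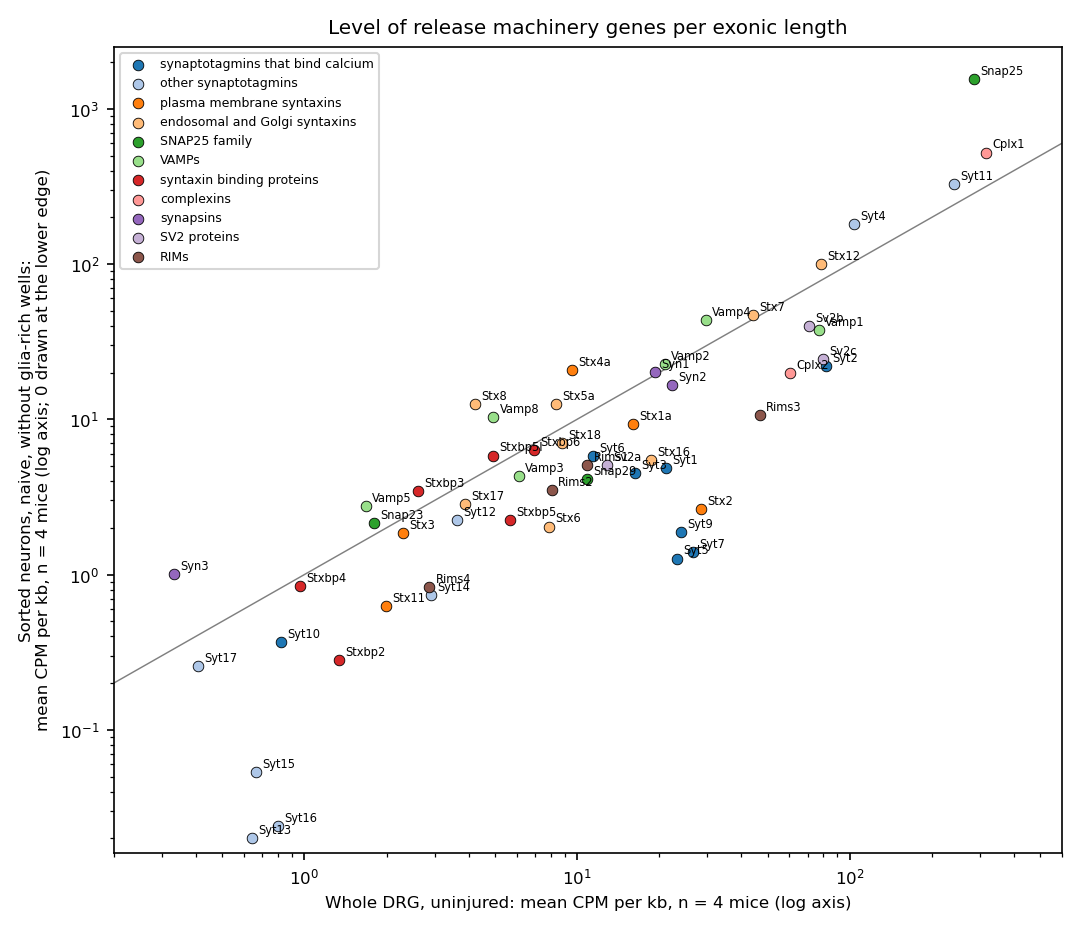
Mean level of the members in CPM per kb of exonic length, in uninjured whole DRG (x axis) against sorted naive neurons without glia-rich wells (y axis), both on log axes, with 1 point a gene, colours for roles, means of 4 mice and a grey line of equal level. Snap25, Cplx1, Syt11 and Syt4 lead on both axes, and Syt5, Syt7 and Syt9 lie far under the line.

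In whole DRG at 1d after SCI, the release machinery stood close to its uninjured level, and none of 58 members was called. The members took 1.08% ± 0.0325 of reads on genes in uninjured mice and 1.07% ± 0.0225 after SCI (SD, n = 4 each). By edgeR's quasi-likelihood test at an adjusted p under 0.1, 0 of 58 members passed where 2.32% of all 17616 genes did. At an unadjusted p under 0.05 there were 9 members, 4 higher and 5 lower after SCI, where 14.6% of all genes passed. DESeq2 called 2 members, Stx3 and Rims1, and 5.27% of all genes. The median log2 fold change of the members was -0.01, against 0.01 over all genes, with a range of -0.32 to 0.53, and the median SE was 0.09 against 0.12. In a bulk library, fewer cells of a type and less RNA per cell cannot be told apart.

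Stx3, a plasma membrane syntaxin of ribbon synapses and epithelia, had the smallest p. It read 13.5, 12.8, 12.6 and 13.8 CPM in uninjured mice and 15.7, 16.8, 15.5 and 15.8 CPM after SCI. All 4 SCI mice stood above all 4 uninjured mice, by 0.28 on the log2 scale (SE 0.08, adjusted p = 0.133 by edgeR). Rims1, the RIM that anchors calcium channels at release sites, read 85.6, 77.9, 78.9 and 79.0 CPM in uninjured mice and 68.9, 69.8, 72.3 and 67.0 CPM after SCI. Here all 4 SCI mice stood below, with a log2 fold change of -0.21 (SE 0.06, adjusted p = 0.146). Without SCI mouse 3, edgeR called both (adjusted p = 0.0945 for Stx3 and 0.0927 for Rims1).

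Stx1a, a neuronal target syntaxin, read 43.5, 41.6, 44.5 and 42.1 CPM in uninjured mice and 37.4, 37.1, 32.0 and 39.8 CPM after SCI. The groups did not overlap, and the log2 fold change was -0.23 (SE 0.08, adjusted p = 0.196). In all, 7 members had groups that did not overlap, where 11% of all genes did, with Rims2, Stx17 and Stx3 higher after SCI and Rims1, Stx11, Stx1a and Stx6 lower. Rims2 and Rims1, close relatives at the release site, thus stood on opposite sides, and Rims2 had a log2 fold change of 0.14 (adjusted p = 0.306). Stx17, the syntaxin of autophagosomes, had 0.20 (adjusted p = 0.238) and Stx6, of the Golgi and endosomes, -0.14 (adjusted p = 0.294).

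By role, all 6 VAMPs but Vamp1 had a log2 fold change above 0, with a family median of 0.14, and all 3 SV2 proteins, both complexins and 6 of 8 of the synaptotagmins that do not bind calcium stood below 0. None of these was called. Cplx2, the other neuronal complexin, had the lowest value at -0.32 (SE 0.14, adjusted p = 0.313). Uninjured mouse 1 read 402 CPM and the other 7 mice 216 to 269. SCI mouse 3 stood above its group in several core genes. Vamp2, the main synaptic VAMP, read 145 CPM there and 73.2 to 85.7 in the other SCI mice. Syn1, a synapsin, read 143 against 55.0 to 70.8, and Sv2c 936 against 659 to 704. The macrophage markers took 0.0068 to 0.0094% of reads in uninjured mice and 0.0100 to 0.0118% after SCI, and the red blood cell markers 0.0013 to 0.0021% and 0.0021 to 0.0090%, with 8 of 8 and 5 of 5 genes read in both groups. Their part in these values was not tested. The range of the neuron markers was 1.56 to 1.65% and 1.41 to 1.64%.

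**Figure D2:**
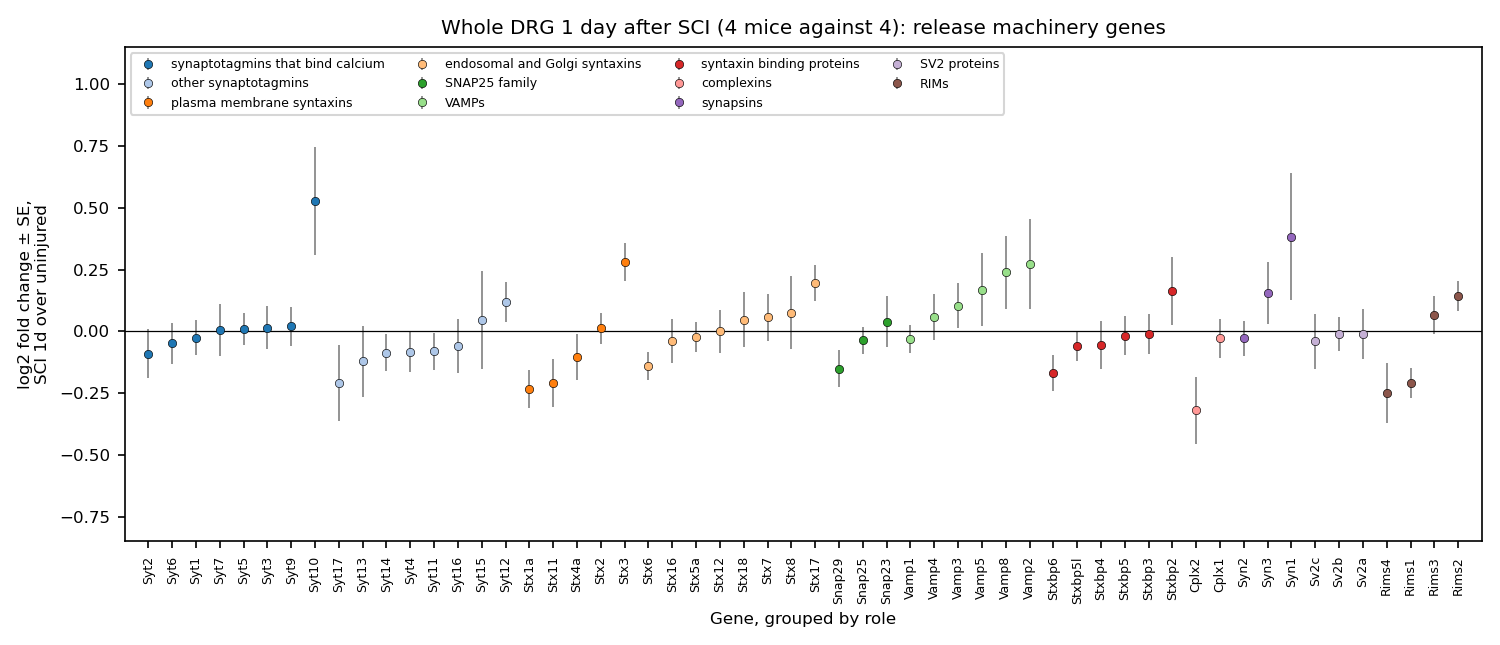
Log2 fold change of each member in whole DRG, SCI 1d against uninjured (points with SE, 4 mice a group, edgeR), grouped by role. Values run from -0.32 for Cplx2 to 0.53 for Syt10, and no member has an adjusted p under 0.1.

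Of the 40 other vesicle cycle and active zone genes on a second list, 39 were tested in whole DRG. None was called where 2.32% of all genes were, and 4 had an unadjusted p under 0.05 where 14.6% of genes did. The lowest adjusted p was 0.184, for Ppfia2, a liprin of the active zone, at a log2 fold change of -0.20.

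Glia-rich wells and other wells of the same sort held very different parts of the machinery (plot of glia-rich against other wells). The members took a median of 0.276% of reads in glia-rich wells and 1.71% in the others. In the 10 mice with wells of both kinds, 27 of 58 members were lower in the glia-rich wells in 10 of 10 mice and 2 were higher in 10 of 10. The neuron and glial markers that sorted the wells are not members, but they go with the same cells, so these values describe the wells and carry no test.

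In the 10 mice with wells of both kinds, the core neuronal genes were nearly absent from the glia-rich wells. Snap25 had a median of 73.8 CPM in the glia-rich wells of these mice and 9453 in their other wells, a median log2 difference of -7.21. Cplx1 had 9.76 against 1361 CPM (-6.91), and Vamp1, a VAMP of motor and sensory terminals, differed by -6.81 and Sv2b by -6.71. Mice with glia-rich wells alone held Snap25 at a higher level. It read 1976 and 2251 CPM in naive mice 5 and 6, 1882 in SNI 3d mouse 3 and 2547 in SCI 3d mouse 3. Over the 10 mice with wells of both kinds, genes with general roles varied. The endosomal and Golgi syntaxins Stx5a and Stx8 differed by -5.22 and -5.12 and Vamp4 by -5.07, close to Syt1 at -5.38, while some others differed less. Syt11 differed by -2.06 and Stx12 by -1.35. Stx7, the syntaxin of late endosomes, had 281 against 267 CPM in the paired wells, a median log2 difference of 0.07. Vamp5, known from muscle and other non-neuronal cells, and Vamp8, a VAMP of endosomes, stood the other way, with Vamp5 at 169 against 7.49 CPM (4.54) and Vamp8 at 276 against 15.5 CPM (3.75). Stx4a, a plasma membrane syntaxin of most cell types, differed by 1.45, its binding partner Stxbp3 by 1.11 and Stxbp6 by 1.23, and each of these 3 was lower in 3 or 4 of the 10 mice.

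**Figure D3:**
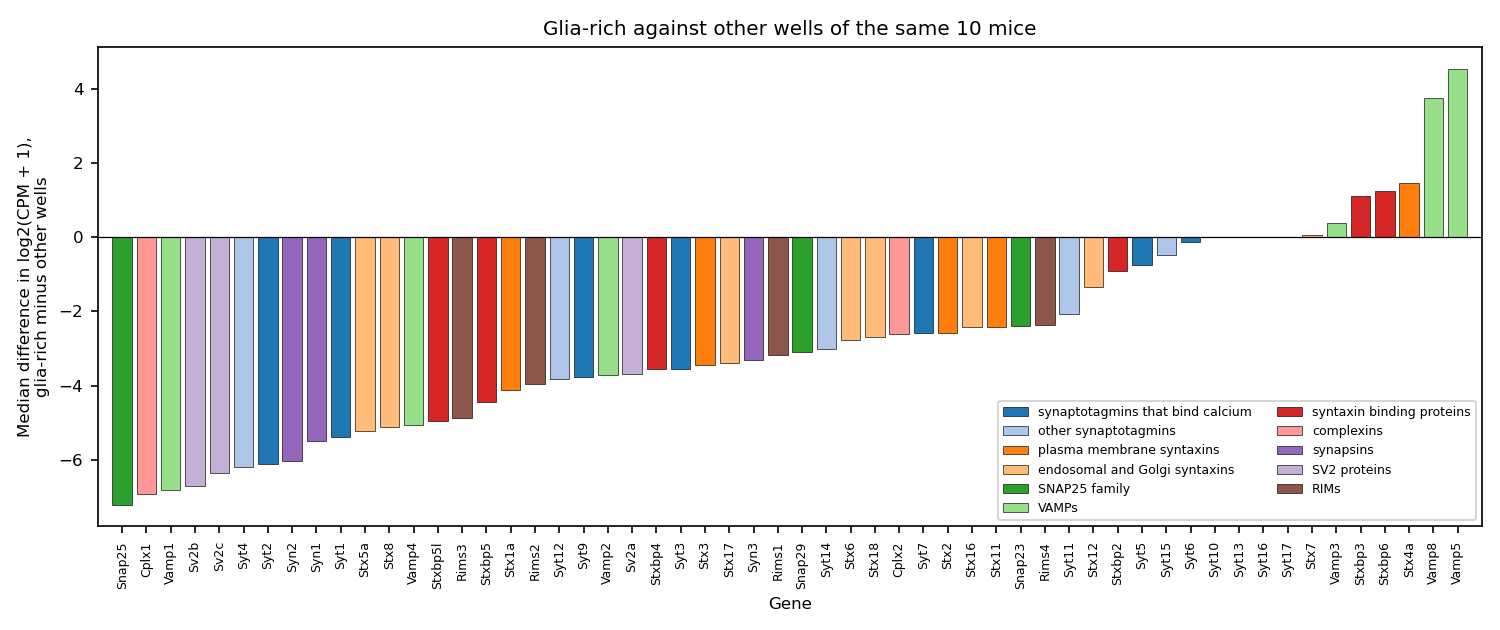
Median difference in log2(CPM + 1) between glia-rich and other wells of the same mouse for each member (10 mice with both). Bars fall below 0 for most genes, from -7.21 for Snap25, and rise to 3.75 for Vamp8 and 4.54 for Vamp5.

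In sorted neurons at 1d after SNI, Syt4 rose, and it was called with all wells and without glia-rich wells. Syt4 is a synaptotagmin of dense core vesicles that is known as an early response gene in neurons. Without glia-rich wells it read 583, 887, 579.9 and 782 CPM in naive mice and 1922, 2602, 2525 and 1254 CPM at SNI 1d. All 4 SNI mice stood above all 4 naive mice, by 2.87-fold (log2 fold change 1.52, SE 0.35, adjusted p = 0.0436 by edgeR). With all wells the naive mice ran from 70.2 to 1211 CPM with a median of 619.7 (n = 6), the SNI 1d mice read 1446, 1958, 1871 and 1078 CPM, and the groups overlapped (log2 fold change 1.61, SE 0.35, adjusted p = 0.0623). That call was lost without SNI 1d mouse 2 or 3 or naive mouse 5 or 6, the last of which read 70.2 CPM, and held in the other 18 of 22 fits. The call without glia-rich wells was lost when SNI 1d mouse 3 or naive mouse 1 was left out (adjusted p = 0.110 and 0.109) and held in the other 16 of 18 fits. Within the set FACS, with 4 naive and 2 SNI 1d mice and no RUVr factors, the log2 fold change was 1.68 (adjusted p = 0.368).

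With all wells, 2 of 58 members were called at SNI 1d, where 0.685% of all 23507 genes were. DESeq2 called 5 members there and 6.95% of all genes. The second member by edgeR was Cplx1 (log2 fold change 0.84, SE 0.21, adjusted p = 0.0925), and that call held in 6 of 22 fits that left out 1 mouse (adjusted p = 0.0491 to 0.815). The value itself moved most without naive mouse 5, whose 3 wells were all glia-rich. This mouse read 36.2 CPM where the other naive mice read 408 to 1196, and without it the log2 fold change was 0.20 (adjusted p = 0.815). Without glia-rich wells Cplx1 read 1324, 728, 1347 and 1176 CPM in naive mice and 1377, 1476, 1036 and 1253 at SNI 1d, which overlap (log2 fold change 0.19, adjusted p = 0.573).

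Without glia-rich wells, 4 of 58 members were called at SNI 1d, where 3.45% of all 22551 genes were. Syt4 and Stx7 rose, and Sv2b and Rims2 fell. The members' median log2 fold change was 0.05, against -0.12 over all genes. DESeq2 called 11 members and 12.4% of all genes, and all 4 of edgeR's members were among its calls. There were 7 members whose groups did not overlap, where 7.08% of all genes did not. Stx5a, Stx7 and Syt4 were higher and Rims3, Stxbp3, Sv2b and Syn3 lower.

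Stx7 lies on chromosome 10, from 24149302 to 24190222 on the plus strand of GRCm38. It read 208, 155, 272 and 199 CPM in naive mice and 286, 304, 469.9 and 295 CPM at SNI 1d. The groups did not overlap, and the rise was 1.59-fold (log2 fold change 0.67, SE 0.16, adjusted p = 0.0488). Sv2b, an SV2 glycoprotein of synaptic vesicles (chromosome 7, 75114894 to 75309262, minus strand), read 291, 308, 389 and 349 CPM in naive mice and 172, 254, 82.0 and 135 CPM at SNI 1d. All SNI 1d mice stood below, by 2.19-fold (log2 fold change -1.13, SE 0.31, adjusted p = 0.0826). Rims2 (chromosome 15, 39198261 to 39684372, plus strand) read 42.4, 41.7, 17.5 and 44.4 CPM in naive mice and 8.97, 19.5, 15.5 and 9.23 CPM at SNI 1d. Naive mouse 3 fell inside the SNI 1d range, and the log2 fold change was -1.45 (SE 0.38, adjusted p = 0.0713). With all wells none of these 3 was called, at a log2 fold change of 0.64 for Stx7, -0.08 for Sv2b and -1.58 for Rims2 (adjusted p = 0.245, 1.00 and 0.396). Over the 18 fits that each left out 1 mouse, Stx7 stayed called in 14, Rims2 in 12 and Sv2b in 8. Stx7 was lost without SNI 1d mouse 3 or naive mouse 1, 2 or 4, and Rims2 without SNI 1d mouse 1, 3 or 4 or naive mouse 1, 2 or 4. Sv2b was lost without any 1 of the 4 naive mice, of SNI 1d mice 1, 3 and 4, or of SCI 1d mouse 1, SCI 3d mouse 2 and SNI 3d mouse 2. Without RUVr factors Syt4 was the member still called (adjusted p = 0.067), and Stx7, Rims2 and Sv2b had an adjusted p of 0.148, 0.104 and 0.26. Within the set FACS the log2 fold changes were 0.50 for Stx7, -1.36 for Rims2 and -0.65 for Sv2b, and none was called (adjusted p = 0.650, 0.583 and 0.747).

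At SNI 3d, Stx7 rose with all wells and without glia-rich wells. It read 342, 307 and 399 CPM without glia-rich wells (n = 3), above all 4 naive mice by 1.68-fold (log2 fold change 0.74, SE 0.17, adjusted p = 0.0661). With all wells the log2 fold change was 1.14 (SE 0.25, adjusted p = 0.0784), and SNI 3d mouse 3, with glia-rich wells alone, read 797 CPM against 277 to 391 in the other 3. Leaving that mouse out gave 0.68 (adjusted p = 0.12), and the call with all wells held in 11 of 22 fits that left out 1 mouse. Without glia-rich wells Stx7 stayed called in 13 of 18 fits that left out 1 mouse and was lost without SNI 3d mouse 1 or 4 or naive mouse 1, 2 or 4. Within the set FACS its log2 fold change was 0.64 (adjusted p = 0.413), and without RUVr factors 0.74 (adjusted p = 0.206).

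Stx7 was the only member called at SNI 3d without glia-rich wells, 1 of 58 where 1.5% of all genes were called. The median log2 fold change of the members was -0.15, against -0.01 over all genes. With all wells, 2 of 58 were called where 0.706% of all genes were, and the second was again Cplx1 (log2 fold change 1.02, adjusted p = 0.0772, called in 13 of 22 fits that left out 1 mouse, 0.25 without naive mouse 5 and 0.22 without glia-rich wells). DESeq2 called 9 members with all wells and 9 without glia-rich wells, where it called 9.96 and 9.46% of all genes.

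Several core genes stood apart at SNI 3d without a call when glia-rich wells were left out, and 3 of them had the opposite sign with all wells. Snap25 (chromosome 2, 136713453 to 136782428, plus strand) read 10172, 7624, 14731 and 9522 CPM in naive mice and 3809, 7116 and 7361 CPM at SNI 3d. The groups did not overlap, and the log2 fold change was -0.77 (SE 0.20, adjusted p = 0.101). It was called in 3 of 18 fits that left out 1 mouse, those without SNI 3d mouse 2, SNI 3d mouse 4 or SNI 1d mouse 4 (lowest adjusted p = 0.0522). Sv2b read 66.4, 256 and 236 CPM, below all naive mice (log2 fold change -0.86, adjusted p = 0.268). Syn1 and Syt1 stood above all naive mice without glia-rich wells. Syn1 read 57.5, 67.4, 74.0 and 67.0 CPM in naive mice and 117, 127 and 106 at SNI 3d (log2 fold change 0.79, adjusted p = 0.146). Syt1, the calcium sensor of most synapses, read 38.1, 49.2, 41.9 and 32.7 CPM in naive mice and 83.8, 71.8 and 109.8 at SNI 3d (1.10, adjusted p = 0.178). Syt4 read 2527, 1093 and 1544 CPM, above all 4 naive mice (1.28, adjusted p = 0.136). With all wells the fitted log2 fold changes at SNI 3d were -0.40 for Syn1, -0.87 for Syt1 and 0.56 for Sv2b, each with the sign reversed, and -0.39 for Snap25 and 0.66 for Syt4 (adjusted p = 0.442 to 0.822 over the 5). SNI 3d mouse 3, with glia-rich wells alone, then read 2.02 CPM for Syn1 and 0.337 for Syt1, against 92.2 to 114 and 64.8 to 108 in the other 3 mice. Without glia-rich wells, 8 of 58 members had groups that did not overlap, where 11.1% of all genes did not, with 5 higher, Stx7, Syn1, Syt1 and Syt4 among them, and Snap25, Stx8 and Sv2b lower.

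**Figure D4:**
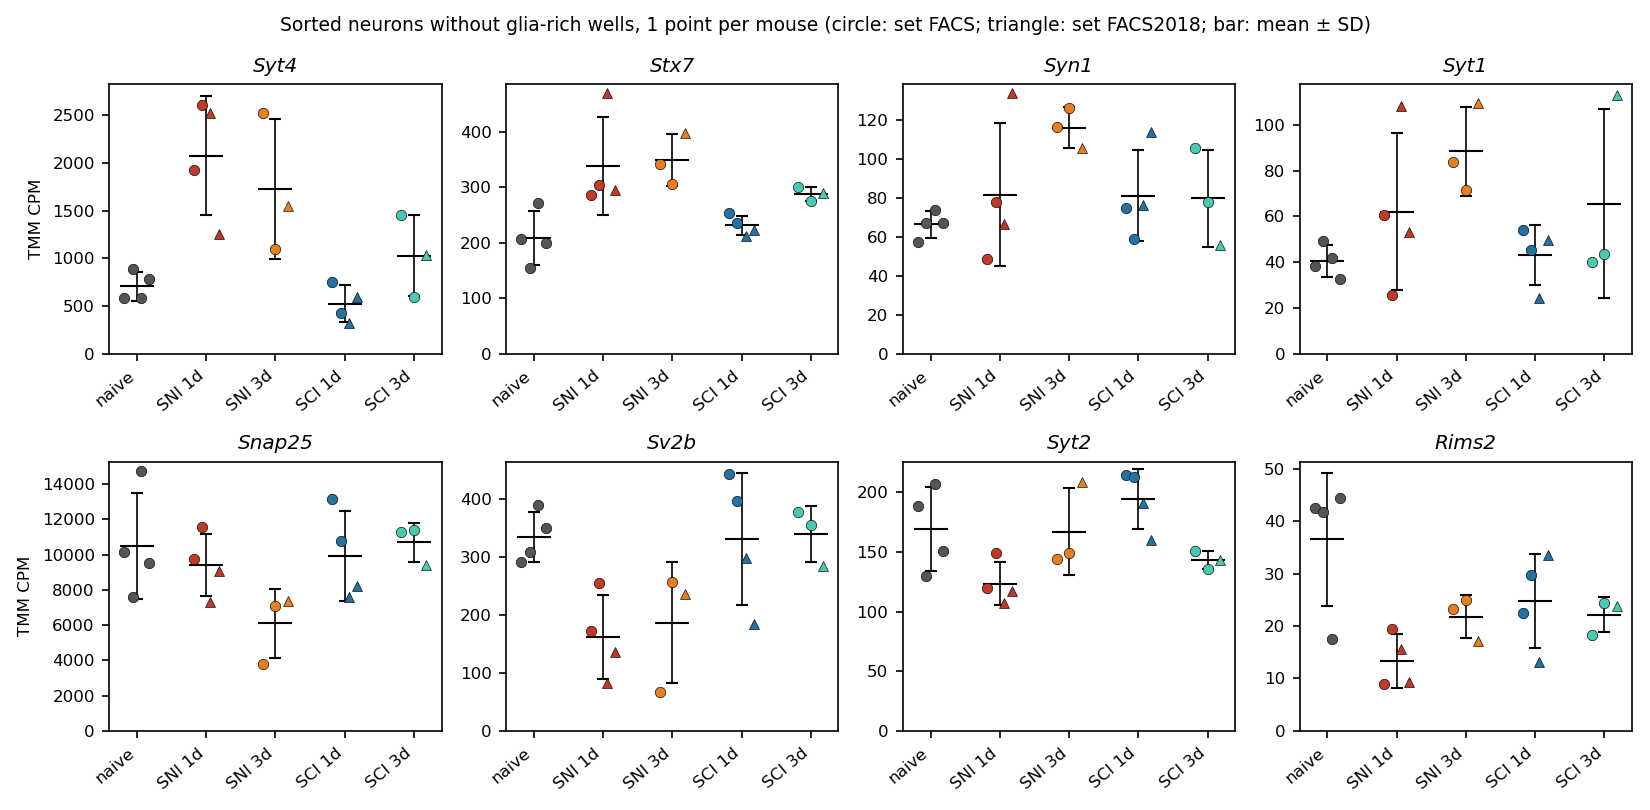
CPM per mouse (linear axis from 0) without glia-rich wells in each of the 5 groups for 8 members (1 point per mouse, circles for the set FACS and triangles for FACS2018, bars for mean ± SD, 3 or 4 mice a group). Syt4 and Stx7 sit above all naive mice in every SNI mouse, and Sv2b below.

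Promoters are shown for the called members that the RefSeq promoter table holds, so that their upstream letters can be read side by side. Of these, Cplx1 was called with all wells only, and Syt2 only in SNI 1d against SCI 1d. The table (GRCm38.p6) held 44 of 58 members, with 57 windows, and each line gives the 250 bases before an annotated start, 5′ to 3′ on the strand of the gene. The windows are chr10:24149039-24149288 (plus) for Stx7, chr5:108550028-108550277 (minus) for Cplx1, chr7:75309263-75309512 (minus) for Sv2b and chr1:134709050-134709299 (plus) for the second of 2 starts of Syt2. Stx7 and Syt2 have 2 starts in the table, Sv2b 4 and Cplx1 1. Windows with an exon of the gene were set aside, and one with a match to the letters searched below came first. Capitals mark a match to AP-1.
Stx7: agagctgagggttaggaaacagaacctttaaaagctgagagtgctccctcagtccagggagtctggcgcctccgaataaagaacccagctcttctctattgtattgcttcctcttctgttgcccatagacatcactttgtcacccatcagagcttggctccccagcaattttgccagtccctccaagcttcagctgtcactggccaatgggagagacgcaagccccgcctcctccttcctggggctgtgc
Cplx1: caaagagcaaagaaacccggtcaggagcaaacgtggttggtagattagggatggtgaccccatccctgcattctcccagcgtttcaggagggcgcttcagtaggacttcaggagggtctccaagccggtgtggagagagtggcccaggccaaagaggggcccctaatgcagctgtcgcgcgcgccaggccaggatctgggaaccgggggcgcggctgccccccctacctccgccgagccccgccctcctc
Sv2b: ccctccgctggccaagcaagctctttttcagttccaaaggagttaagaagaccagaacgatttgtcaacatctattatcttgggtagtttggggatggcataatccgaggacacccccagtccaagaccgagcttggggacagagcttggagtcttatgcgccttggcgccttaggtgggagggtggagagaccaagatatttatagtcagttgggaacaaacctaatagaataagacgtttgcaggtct
Syt2: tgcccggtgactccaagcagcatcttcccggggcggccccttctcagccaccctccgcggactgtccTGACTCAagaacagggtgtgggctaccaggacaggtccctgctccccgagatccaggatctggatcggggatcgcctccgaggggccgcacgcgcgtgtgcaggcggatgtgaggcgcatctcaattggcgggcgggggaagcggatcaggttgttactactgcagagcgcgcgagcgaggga
The letters TGANTCA (AP-1) and TGACGTCA (CRE) were searched on both strands, and the second cannot hold the first. AP-1 matched 6.75% of 32851 windows in the table and 1 of 57 member windows (1 of 44 members, Syt2), at 183 bases before the start. CRE matched 1.55% of windows and 2 of 57 member windows (2 of 44 members, Stxbp3 and Syn1). Neither motif was in the printed windows of Stx7, Cplx1 and Sv2b. The median GC content was 61.2% in the members' windows and 52.4% in all windows, with 54% for Stx7, 64.8% for Cplx1, 48.8% for Sv2b and 66.4% for Syt2. A match describes letters only.

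After SCI, no member was called in sorted neurons at either time by edgeR. At SCI 1d, 0 of 58 members passed with all wells where 0.017% of all genes did, and at an unadjusted p under 0.05 there were 5 members where 12.7% of all genes passed. Without glia-rich wells 0 of 58 passed where 0% of all genes did, and 4 members where 11.2% of genes passed at the unadjusted p. DESeq2 called 4 members with all wells (Cplx1, Syt12, Syt17 and Vamp1) where it called 5.31% of all genes, and 2 without glia-rich wells (Syt17 and Vamp4) where it called 5.53%. The smallest p without glia-rich wells was that of Vamp4, a VAMP of the trans-Golgi network (log2 fold change -0.53, SE 0.15, adjusted p = 0.338). Vamp1 with all wells was at 1.26 (adjusted p = 0.175) and without glia-rich wells at 0.07. Of 58 members, 1 had groups that did not overlap, Stxbp3, where 2.98% of all genes did not. Stxbp3 read 16.2, 17.3, 19.0 and 20.8 CPM in naive mice and 12.4, 10.5, 7.10 and 9.80 at SCI 1d (log2 fold change -0.88, adjusted p = 0.477).

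At SCI 3d, 0 of 58 members passed with all wells and without glia-rich wells, as did 0% of all genes in each. At an unadjusted p under 0.05 there were 8 members with all wells, where 9.39% of genes passed, and 2 without glia-rich wells, where 4.93% did. DESeq2 called 3 members with all wells (Rims2, Rims3 and Stxbp3) and 5.43% of all genes, and 1 without glia-rich wells (Stxbp3) and 2.48% of all genes. The 2 members at an unadjusted p under 0.05 were Stxbp3, which read 9.02, 3.34 and 2.28 CPM (log2 fold change -1.96), and Stx7, which read 301, 275 and 289 CPM (0.47), each with an adjusted p of 0.885 by edgeR. In 4 of 58 members the groups did not overlap, where 3.7% of all genes did not, with Stx7 higher and Stx16, Stxbp3 and Syn3 lower. Without glia-rich wells Syt4 read 755, 422, 316 and 593 CPM at SCI 1d and 1449, 595 and 1035 at SCI 3d, and both overlapped the naive mice (log2 fold change -0.45 and 0.52, adjusted p = 0.638 and 0.912). Snap25 read 13148, 10791, 7597 and 8197 CPM at SCI 1d and 11312, 11382 and 9409 at SCI 3d. Its log2 fold changes were -0.08 (SE 0.18) and 0.04 (SE 0.20). The members' median log2 fold change without glia-rich wells was 0.03 at SCI 1d and -0.00 at SCI 3d, against -0.10 and -0.04 over all genes.

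The 2 injuries were compared directly at each time. Naive mice are in neither arm of this contrast, but they and the mice of the other time shared the fit, its RUVr factors and its estimate of spread. At 1d, Syt4 was higher after SNI than after SCI. Its values without glia-rich wells, 1254 to 2602 CPM at SNI 1d and 316 to 755 at SCI 1d, did not overlap, and the difference was 3.93-fold (log2 1.97, SE 0.35, adjusted p = 0.0216). It was called in 18 of 18 fits that left out 1 mouse (adjusted p = 0.0143 to 0.0715). Within the sets FACS and FACS2018, with 2 mice a group and no RUVr factors, the direction was the same, at 1.94 and 2.06 on the log2 scale (adjusted p = 0.371 and 0.22). With all wells it was 2.00 (adjusted p = 0.248), which was no call.

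Syt2 (chromosome 1, 134646677 to 134762593, plus strand) differed the other way. It read 119, 149, 108 and 117 CPM at SNI 1d and 214, 213, 191 and 160.2 at SCI 1d without glia-rich wells. The groups did not overlap, and the level was 1.57-fold lower after SNI (log2 fold change -0.65, SE 0.16, adjusted p = 0.0638). The naive mice lay between and across both, at 189, 129.9, 207 and 151 CPM. With all wells its log2 fold change was -0.70 (adjusted p = 0.787), which was no call. Syt2 was called in 12 of 18 fits that left out 1 mouse and was lost without SNI 1d mouse 1 or 3, SCI 1d mouse 1, 2 or 3, or SCI 3d mouse 2. Within the sets FACS and FACS2018 its log2 fold changes were -0.67 and -0.64 (adjusted p = 0.668 and 0.422), and without RUVr factors -0.66 (adjusted p = 0.169).

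Without glia-rich wells these 2 were the members called at 1d, 2 of 58 where 2.31% of all genes were, and DESeq2 called 12 where it called 11.2% of all genes. With all wells 0 of 58 were called and 0% of all genes, with 6 members at an unadjusted p under 0.05 where 10.2% of genes passed, and DESeq2 called 3 (Snap23, Syt17 and Syt4) and 4.81% of all genes. In 5 of 58 the groups did not overlap, where 5.48% of all genes did not, with Snap29, Stx7, Syt14 and Syt4 higher after SNI and Syt2 lower.

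At 3d no member was called between the injuries. With all wells 0 of 58 passed, as did 0% of all genes, and 5 members passed at an unadjusted p under 0.05 where 8.47% of genes did. Without glia-rich wells 0 of 58 passed where 0.0133% of all genes did, and 7 members where 8.95% of genes passed at the unadjusted p. DESeq2 called 1 member (Syt3) and 4.21% of all genes with all wells, and 3 (Snap25, Syt3 and Vamp2) and 4.95% of all genes without glia-rich wells. The smallest p was that of Syt3, a high-affinity calcium sensor, which read 2.92, 12.3 and 0.844 CPM at SNI 3d and 36.2, 19.1 and 14.8 at SCI 3d (log2 fold change -2.48, SE 0.58, adjusted p = 0.228, and -1.91, adjusted p = 0.584, with all wells). Snap25 was at -0.81 (SE 0.21, adjusted p = 0.281) and Vamp2 at 0.92 (SE 0.26, adjusted p = 0.331). Of the members at an unadjusted p under 0.05 without glia-rich wells, 3 had the opposite sign with all wells, Sv2b (-0.87 and 0.47), Stx18 (-0.80 and 0.09) and Stxbp5 (0.95 and -0.22). In 10 of 58 the groups did not overlap without glia-rich wells, where 12.3% of all genes did not, with Stx11, Stx7, Stxbp5 and Vamp2 higher after SNI and Snap25, Stx18, Stx6, Stxbp4, Sv2b and Syt3 lower.

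**Figure D5:**
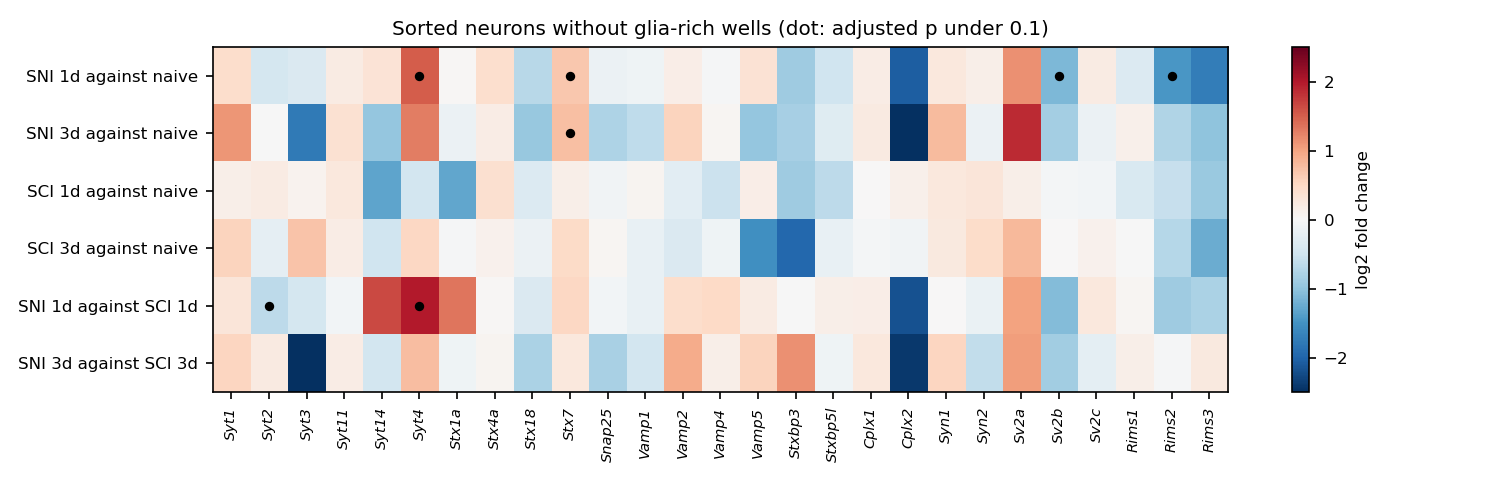
Heat map of log2 fold changes (edgeR, without glia-rich wells) of 27 members with reads in all 18 mice, 1 column a gene and 1 line a comparison, with red above 0, blue below 0 and a dot for an adjusted p under 0.1. Dots mark Syt4, Stx7, Sv2b and Rims2 at SNI 1d, Stx7 at SNI 3d, and Syt2 and Syt4 in SNI 1d against SCI 1d, and the lines of SCI against naive hold none.

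By role and without glia-rich wells, 6 of 6 plasma membrane syntaxins had a log2 fold change above 0 at SNI 1d, with a median of 0.42, and none was called. With all wells it was 5 of 6, with a median of 0.38. Stx4a (0.42) and Stx11 (1.35) were among the 3 of them at an unadjusted p under 0.05 without glia-rich wells, and none was with all wells. Of the 4 RIMs, Rims1, Rims2 and Rims3 were below 0 at SNI 1d without glia-rich wells, with a family median of -0.90, and with all wells 2 of 4 were above 0 with a median of -0.59. Rims3, a short RIM, read 71.5, 117, 43.0 and 108 CPM in naive mice and 31.8, 15.5, 25.5 and 24.6 at SNI 1d (log2 fold change -1.73, SE 0.59, adjusted p = 0.162, and -2.25, adjusted p = 0.205, with all wells). The endosomal and Golgi syntaxins split, with Stx7 and Stx5a (0.71, adjusted p = 0.16) above 0 and Stx18 (-0.70, adjusted p = 0.256) below, and with all wells Stx5a was at 0.77 and Stx18 at -0.74. Among VAMPs at SNI 3d, Vamp1 and Vamp2 were at -0.64 (adjusted p = 0.206) and 0.56 (adjusted p = 0.319) without glia-rich wells, and at 0.85 and 0.48 with all wells, where Vamp1 had the opposite sign. At SCI 3d 6 of 6 VAMPs had a value below 0 without glia-rich wells, with a median of -0.33, and 4 of 6 with all wells, with a median of -0.07.

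Members differed widely in how far mice of 1 group spread. Without glia-rich wells, the SD between mice of a group, on log2(CPM + 1), was 0.20 for Syt11 and 0.23 for Stx7 and Syt2, and 2.45 for Syt6, 2.42 for Cplx2, 1.75 for Stx1a and 1.48 for Sv2a. Wells of the same mouse spread by an SD of 2.01 for Syt6, 2.39 for Cplx2, 2.09 for Stx1a and 2.07 for Sv2a. For Syt11, Stx7 and Syt2 that SD was 0.20, 0.40 and 0.54. The spread between mice thus includes spread between wells, and their parts were not tested. Syt11 read 1825, 1468, 1835 and 1710 CPM in naive mice, and its log2 fold change lay between 0.19 and 0.37 in the 4 comparisons with naive (SE 0.12 to 0.13). Cplx2 read 0.741, 248, 27.7 and 117 CPM in naive mice and 3.97, 17.6, 201 and 241 at SCI 1d. Syt6 read 0.0674, 88.9, 5.78 and 39.6 CPM in naive mice and 0, 0.0636, 41.9 and 48.8 at SCI 1d. In both genes naive mice 2 and 4 and SCI 1d mice 3 and 4 were the high ones. Stx1a was highest in the same mice, at 62.2 and 21.8 CPM of 4.54 to 62.2 in naive mice and 30.3 and 51.3 of 0.064 to 51.3 at SCI 1d. Sv2a, the SV2 protein found at nearly all synapses, was high in others, at 2.40, 2.68, 61.4 and 28.1 CPM in naive mice. SCI 1d mice 3 and 4 were that group's mice of the set FACS2018, and all 4 naive mice were of the set FACS. The part of the set in these values was not tested. At SNI 1d Cplx2 had a log2 fold change of -2.06, with an SE of 1.08 (adjusted p = 0.34), and of 0.04 with all wells.

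Reads were found for 45 of 58 members in every one of the 22 mice with all wells, and for 49 in every one of the 18 mice without glia-rich wells. Syt13 had no reads in any naive mouse without glia-rich wells, and Syt10, Syt15, Syt16 and Syt17 were at or near 0 in most sorted mice, so no fold is given for them in sorted neurons.

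Of the other vesicle cycle and active zone genes, a list chosen with earlier results known, with all wells 2 of 40 were called at SNI 1d where 0.685% of all genes were, Amph, an endocytic adaptor (log2 fold change 1.28, adjusted p = 0.084), and Syp, the vesicle protein synaptophysin (1.35, adjusted p = 0.089). At SNI 3d 3 of 40 were called where 0.706% of all genes were, Amph (1.60, adjusted p = 0.0595), Sncb, beta-synuclein (2.38, adjusted p = 0.077), and Cadps, a priming factor of dense core vesicles (-0.91, adjusted p = 0.099). Without glia-rich wells other genes of the list passed, 1 of 40 in each of 3 comparisons, where 3.45, 1.5 and 2.31% of all genes were called. These were Napa, alpha-SNAP, which takes apart spent SNARE complexes, at SNI 1d (0.41, adjusted p = 0.054), Ppfia2 at SNI 3d (1.37, adjusted p = 0.076) and Erc2, an active zone scaffold, in SNI 1d against SCI 1d (1.01, adjusted p = 0.078). None of 40 was called after SCI against naive in either fit, where at most 0.017% of all genes were. At SNI 3d with all wells, 15 of 40 had an unadjusted p under 0.05, 8 higher and 7 lower, where 2992 of 23507 genes did. Without glia-rich wells there were 16 of 40, 8 higher and 8 lower, where 3220 of 22551 genes passed.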

How the data were processed

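RNA sequencing libraries of 8 whole L4 DRG and of 66 wells of sorted YFP+ cells from 22 mice were analysed. The deposited values are counts of reads per gene, which the authors made with cutadapt, PRINSEQ, STAR 2.5.3a and HTSeq 0.6.1 on GRCm38 (mm10). The strand setting of the counting is not given in the sources used here. Further deposited tables hold the authors' own comparisons (fold changes, p-values) and 123 columns of normalized values, none of which was used.

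The members and lists were chosen with earlier results of these data known. Groups came from the labels. Wells are technical replicates and were summed per mouse, and the mouse was the replicate. Between 33.1 and 66.9% of reads fell on no gene and stayed out of library sizes. Tests used edgeR 4.0.16 (quasi-likelihood, TMM scaling) in R 4.3.3, with Benjamini-Hochberg adjustment over all genes tested and a threshold of 0.1. Whole DRG genes needed a mean count of 10, and FACS genes needed 20 reads in at least 1 mouse. FACS fits held all 5 groups and 2 RUVr factors of unwanted variation, estimated from residuals centred per gene across all mice. CPM in the text are TMM-scaled. Glia-rich wells were defined by markers that are not members. Alternatives were DESeq2 1.42.0, other filters and factor settings, each set alone, a replicate block and leaving out each mouse. Scripts were tested on simulated data. Named members are those called in any comparison, the 5 with the smallest p in each, and a presynaptic core of 16 genes, and further members were named after their values were seen where groups did not overlap or a family is described. The study removed outlier samples that the sources do not name, so all were kept. Some members count in the totals but are not reported here. Gene positions and exonic lengths came from GENCODE (GRCm38). Nothing in the labels says that same-numbered mice of different groups are paired, and the main fits did not pair them.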

Additional observations from a re-analysis of the deposited data

Results flagged for a closer look

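In whole DRG, 6 values came from 1 mouse far from the other 3 of its group by Dixon's test, among 85 groups of values tested, where chance gives about 1 in 20. Uninjured mouse 1 held 5 of them. The members took 1.125% of its reads against 1.06 to 1.07% in the other uninjured mice. Syt2 read 730.3 CPM there against 582 to 593, Cplx2 402 against 255 to 269, Sv2c 873 against 722 to 745, and Rims1 85.6 against 77.9 to 79.0. In SCI 1d mouse 3, Syn2 read 173 CPM against 146 to 149.

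In sorted neurons without glia-rich wells, 2 members differed between the injuries at 1d by edgeR. Syt4 was higher after SNI than after SCI, with a log2 difference of 1.97 (adjusted p = 0.0216, 4 of 4 SNI mice above all SCI mice). Syt2 was lower after SNI, with a log2 difference of -0.65 (adjusted p = 0.0638, 4 of 4 below).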

How the results depend on the processing

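Counts of members called by edgeR were 0 in whole DRG, 2 at SNI 1d and 2 at SNI 3d with all wells, and 4 at SNI 1d, 1 at SNI 3d and 2 in SNI 1d against SCI 1d without glia-rich wells. With all wells, the SNI 1d count was 0 at a threshold of 0.05, with 1 RUVr factor, with none, with uncentred factors, with the set as a term and within the set FACS, and 1 with no count filter or within FACS2018. The SNI 3d count was 0 under each of these that could be fitted except FACS2018. Of 23507 genes, edgeR called 10 at SNI 1d with 1 RUVr factor and 1 with uncentred factors. It called 0 with no factors, with the set as a term and within FACS. At SNI 3d it called 0 with 1 factor, 2 with uncentred factors and 0 in the rest of these. With so few calls over all genes, a member count of 0 says little about the members. Within FACS2018, 77 genes were called at SNI 1d and 290 at SNI 3d, and with no count filter 144 and 57 of 35426. With the replicate block both counts were 0, where edgeR called 1 gene at SNI 1d and 0 at SNI 3d. Same-numbered mice correlated at -0.0253 to 0.414 (whole DRG -0.158 to 0.257). Pairs with different numbers, some of them across the sets, correlated at -0.340 to 0.269 (whole DRG -0.313 to 0.306). These ranges overlap and cannot decide whether the numbers pair the mice. DESeq2 with all wells gave 2 members in whole DRG, 5 at SNI 1d, 9 at SNI 3d, 4 at SCI 1d, 3 at SCI 3d, 3 in SNI 1d against SCI 1d and 1 in SNI 3d against SCI 3d. Within FACS2018, SCI 1d and SCI 3d had 1 each, where edgeR called 18 and 119 of 23507 genes. Without glia-rich wells DESeq2 gave 11, 9, 2, 1, 12 and 3 in the same order of sorted comparisons. There a threshold of 0.05 gave 2, 0 and 1 for SNI 1d, SNI 3d and SNI 1d against SCI 1d, no RUVr factors gave 1, 0 and 1, and the set FACS gave 0 for each, as did FACS2018 for SNI 1d against SCI 1d. The share of all genes at a threshold of 0.05 is not given, with or without glia-rich wells. The member counts at that threshold therefore describe counts only. Over all 22551 genes, no RUVr factors gave 199, 76 and 155 calls, and the set FACS gave 13, 41 and 5. FACS2018 gave 20 for SNI 1d against SCI 1d. No fit within FACS2018 against naive was possible without glia-rich wells, since no naive mouse of that set remains.

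Leaving out each mouse in turn gave 0 to 2 members in whole DRG. With all wells it gave 0 to 4 at SNI 1d, 0 to 6 at SNI 3d, 0 to 1 at SCI 1d and in SNI 1d against SCI 1d, and 0 at SCI 3d and in SNI 3d against SCI 3d. Without glia-rich wells it gave 0 to 5 at SNI 1d and SNI 3d, 0 at SCI 1d and SCI 3d, 1 to 4 in SNI 1d against SCI 1d and 0 to 1 in SNI 3d against SCI 3d. Within FACS2018 without glia-rich wells, 1 mouse remained at SNI 3d and 1 at SCI 3d, and each was assumed to vary like the others. The share of all genes called is not given for the fits that left out 1 mouse, so these ranges describe counts only.

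Of the values of single members under the alternatives, 1561 kept direction and side of the threshold, 57 passed it newly, 127 no longer passed it and 9 changed sign. The last were, with all wells, Vamp1 at SNI 1d (-0.20 within FACS, -0.11 without glia-rich wells and -0.0287 without naive mouse 5, in a range over left-out mice up to 1.37), Syt14 at SNI 3d (0.0903 without SNI 3d mouse 3, in a range from -4.15), and Snap23 (-0.0597) and Stx18 (0.14) in SNI 1d against SCI 1d within FACS. Syt14 in SNI 3d against SCI 3d gave 0.39 within FACS and 0.71 without SNI 3d mouse 3, in a range from -2.87, and Stxbp5l at SCI 1d without glia-rich wells gave 0.0339 within FACS. The cause was not tested. At SNI 1d the median log2 fold change over all genes moved from 0.17 with all wells to -0.11 without RUVr factors and -0.12 without glia-rich wells, and Syt4, at 1.34 to 1.61 in these, kept its direction. Low counts limit the members near 0 reads in sorted neurons, and 3 or 4 mice a group limit the others. Why those members stood near 0 was not tested.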
